A study of Mus musculus with 3 samples.

Results

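The cytosolic ribosomal protein genes described here were found by name in the deposited gene tables: every symbol made of Rpl or Rps, a number, at most one further letter and at most one further digit, together with Rplp0, Rplp1, Rplp2 and Rpsa. This gave 84 of 21881 symbols, and no measured value was used to choose them. Of the 84, 7 are paralogues, namely Rpl3l, Rpl10l, Rpl22l1, Rpl7l1, Rpl39l, Rps27l and Rps4y2, and 77 are canonical members, 46 of the large and 31 of the small subunit. Fau and Gnb2l1 also encode ribosomal proteins, and their names fall outside the rule. RNA came from 3 snap-frozen tumours of NDL(UCD), a transplantable mammary tumour line of an ErbB2 mouse model, which formed a single group with no other group beside it. Cultured cells of the line had been placed in the fat pads of female FVB/NJ mice at an age of 6 to 8 weeks, and each tumour was collected once 5 to 10 mm wide. The tumours grew in different mice, so all 3 share the line, strain, sex and handling, and the values describe 1 line only. NDL is known as a model with an activated Erbb2 (Neu) transgene driven by a mammary tumour virus promoter.

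Each ribosome is built from ribosomal RNA and one copy of nearly every canonical protein, and the stalk proteins are the known exception with more copies. The mRNAs of these proteins are known to begin with a run of pyrimidines at their 5′ end, through which signalling by mTOR, a kinase that acts downstream of ErbB2, controls their translation. Ribosomal protein genes are also known for their many processed pseudogenes, copies of the mRNA inserted elsewhere in the genome, which resemble the parent closely and can draw reads from it.

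The start sites of 3 canonical members show the pyrimidine run. The windows below cover 40 bases before to 20 bases after the annotated start in RefSeq on GRCm38.p6, read 5′ to 3′ on the gene's own strand, with runs of at least 10 C or T in capitals. They are chr4:86857348-86857407 on the minus strand for Rps6, chr7:141447611-141447670 on the plus strand for Rplp2 and chr2:39005112-39005171 on the minus strand for Rpl35. The windows of the paralogue Rpl22l1, chr3:28805468-28805527 on the plus strand, and of the paralogue Rpl10l, chr12:66284382-66284441 on the minus strand, follow for contrast, with a run in the first and none in the second.
Rps6: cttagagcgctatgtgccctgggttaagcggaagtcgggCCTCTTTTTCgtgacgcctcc
Rplp2: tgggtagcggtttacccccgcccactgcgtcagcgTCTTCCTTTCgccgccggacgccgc
Rpl35: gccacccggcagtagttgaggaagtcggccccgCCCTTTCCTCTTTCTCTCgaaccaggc
Rpl22l1: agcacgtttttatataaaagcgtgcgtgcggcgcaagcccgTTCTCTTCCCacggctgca
Rpl10l: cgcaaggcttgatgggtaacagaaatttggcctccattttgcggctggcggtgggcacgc

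A run of at least 10 C or T on the transcribed strand within 50 bases either side of the start was present in 1 of 6 paralogues with a window, Rpl22l1, and in 42 of 57 canonical members, or 73.7%. Among all 27025 promoters of the table the share was 20.6%, and among the 7756 of genes called above 1 FPKM it was 19.8%. The letters CTTCCG, on either strand of the window of 300 bases from 250 before to 50 after the start, were found in 2 of 6 paralogues, Rpl39l and Rps27l, and in 40 of 57 canonical members, or 70.2%. They were found in 18.8% of all promoters and in 36.3% of those called above 1 FPKM. A pyrimidine run can contain part of CTTCCG, so the counts may overlap. These patterns were chosen with the values known and are descriptions of the letters only.

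Across the series, all FPKM of a tumour summed to between 318509 and 375968, and interval widths implied library sizes of 11.6, 12.3 and 13.3 M (mega) fragments for the 3 tumours in order. FPKM counts fragments per kilobase of transcript, scaled to the library, so that levels of different genes can be compared. Of the 7 luminal epithelial markers, 7 were above 1 FPKM, with summed levels between 972 and 1342 FPKM. Tumour material also holds cells of the host, and more cells of a type cannot be told apart from more RNA per cell.

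Ribosomal protein mRNAs were among the most abundant transcripts of the tumours. Together the 84 members made up 5.78% of the FPKM of tumour 1, 7.52% of tumour 2 and 7.84% of tumour 3, and 23 of them ranked among the 100 highest symbols. The median canonical member had 151, 255 and 265 FPKM, against 2.13, 2.29 and 2.26 FPKM for the median of all symbols tested. Levels were tested against 1 FPKM, a conventional level, by limma across all symbols with Benjamini-Hochberg adjustment. In that test 77 of 84 members were above 1 FPKM, where 54.2% of 18028 symbols were, and 4 were below it, where 32.5% of symbols were. The other 3 members, Rpl29, Rps27 and Rps4y2, were not separated from 1 FPKM.

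**Figure D1:**
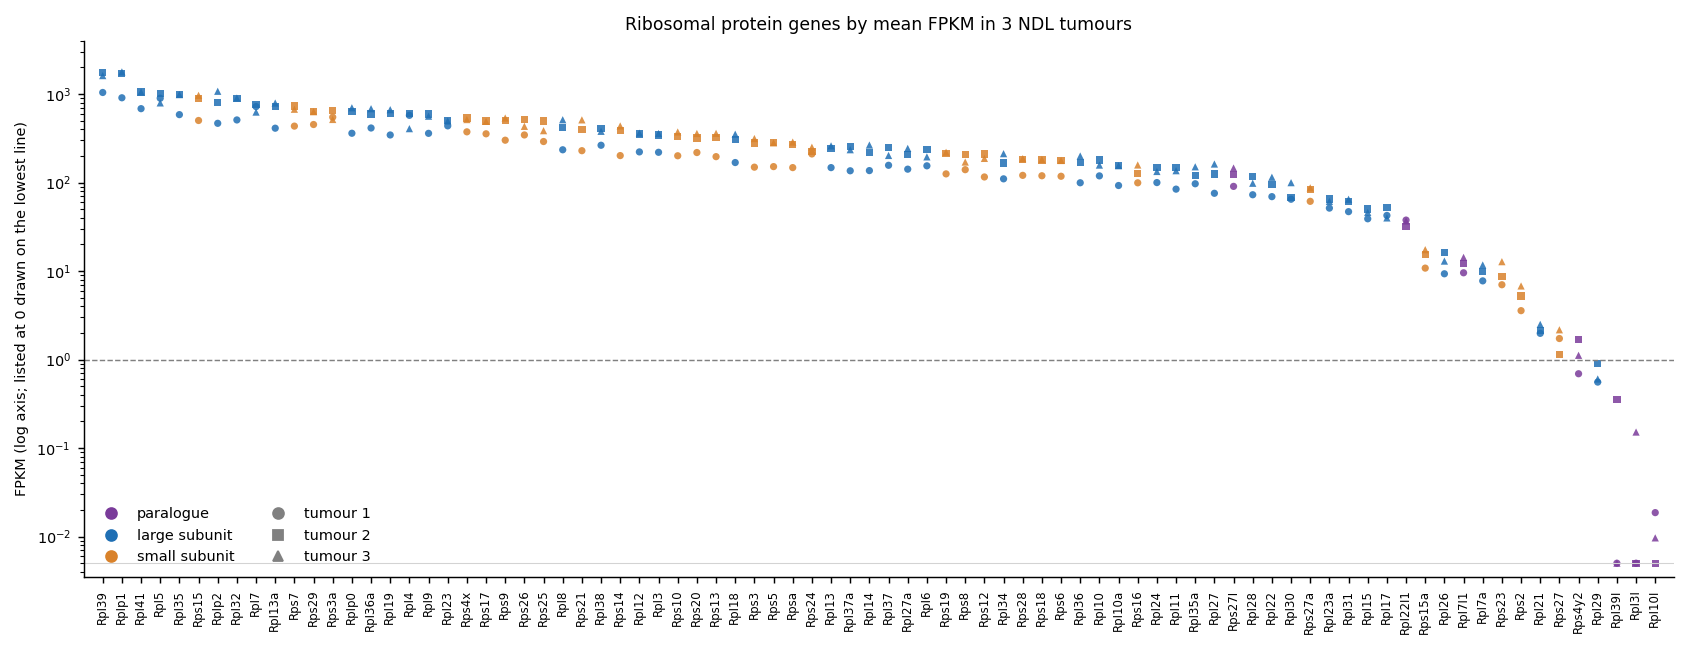
FPKM of 82 of the 84 members in each of 3 NDL tumours on a log axis, ordered by mean, with paralogues, large and small subunit members in different colours and the dashed line at 1 FPKM. Levels decline gradually over most canonical members, and the lowest canonical members drawn fall off steeply, from 45.0 FPKM for Rpl17 down to 0.684 FPKM for Rpl29 on average.

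The large subunit supplied 9 of the 10 highest canonical members. Rpl39, which lines the exit tunnel of the ribosome, had 1041, 1736 and 1615 FPKM in tumours 1, 2 and 3 (mm9 chromosome X, 34622515 to 34625179). Rplp1, an acidic stalk protein that binds elongation factors, had 907, 1696 and 1778 FPKM (mm9 chromosome 9, 61761090 to 61762317). In both, tumour 1 was the lowest of the 3. The means were 1464 ± 371 FPKM for Rpl39 and 1460.5 ± 481 FPKM for Rplp1 (SD, n = 3), a difference smaller than either spread. Rplp2, the partner of Rplp1 in the stalk, averaged 782 ± 304 FPKM, and Rplp0, the base of the stalk, averaged 565 ± 180 FPKM. Rpl35, which sits beside the tunnel exit and whose window holds the longest run shown above, averaged 852 ± 231 FPKM.

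Rpl5 and Rpl11 form a particle with the 5S ribosomal RNA that can bind Mdm2 and so restrain p53 degradation. Rpl5 had 897, 1008 and 794 FPKM in tumours 1, 2 and 3, and Rpl11 had 84.2, 149 and 136 FPKM. The 2 partners did not overlap in level. The mean of Rpl5 was 899 ± 107 FPKM and that of Rpl11 123 ± 34.2 FPKM (SD, n = 3). Rpl5 shares 93.8% of its 50-mers with other genes and Rpl11 62.2% (a 50-mer is a stretch of 50 bases of the transcript), and how such reads were assigned was not tested. The other members among the 10 highest were Rpl41, a very small basic protein, at 929.9 ± 214 FPKM, Rps15, a small subunit assembly protein, at 783 ± 247 FPKM, Rpl32 at 765 ± 221 FPKM, Rpl7 at 704 ± 71.4 FPKM and Rpl13a, known for a second role in interferon-regulated translational silencing, at 639.9 ± 202 FPKM.

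Among members with known roles outside basic assembly, levels covered a wide range. Rps6, the phosphorylation target of S6 kinase below mTOR, had 118, 177 and 177 FPKM in tumours 1, 2 and 3. Rps19 and Rps14, whose human counterparts are tied to inherited and acquired anaemias, averaged 185 ± 52.2 and 341 ± 124 FPKM (SD, n = 3). Rpl38, known in mice for its part in Hox mRNA translation, averaged 349.9 ± 76.0 FPKM, and Rpsa, also described as a laminin receptor, 234 ± 75.8 FPKM. Rps27a, which is made as a fusion with ubiquitin, was lower at 77.2 ± 13.9 FPKM. Rpl10, an X-linked protein that joins the large subunit late, averaged 152 ± 31.0 FPKM. Rpl10 and Rps6, at 157 ± 34.4 FPKM, differed by less than either spread.

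Large and small subunit members had similar medians. The medians were 144, 237 and 239 FPKM over the 46 large subunit members of tumours 1, 2 and 3, against 184, 282 and 286 FPKM over the 31 small subunit members. The large subunit was the lower in each tumour, with a within-tumour difference of -0.29 ± 0.05 on the log2(FPKM + 0.1) scale (SD, n = 3; exact two-sided sign-flip permutation test, p = 0.25, the smallest that 3 tumours allow). Its direction depends on which members are counted. Over the 13 large and 13 small subunit members with under 50% of their 50-mers in other genes, an alternative chosen after seeing the data, the difference was 0.080.

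The lowest canonical members lay far below the median of their kind. Rps27, a zinc-finger protein of the small subunit, had 1.73, 1.14 and 2.17 FPKM in tumours 1, 2 and 3. Rps23, which lies in the decoding centre, had 7.001, 8.70 and 12.8 FPKM, and Rpl26, which is also known to bind p53 mRNA, had 9.31, 16.2 and 12.95 FPKM. For each of these 3 members the files hold another row at the same place in mm9, and that row was high in FPKM.

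**Figure D2:**
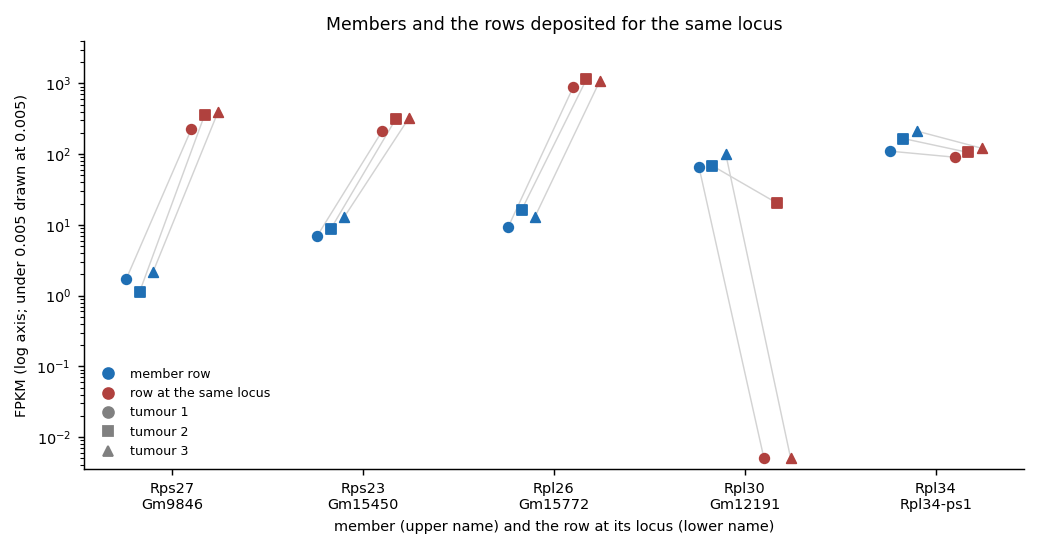
FPKM on a log axis of 5 members (left symbol of each pair) and of the row that shares at least 50% of both loci with the member (right symbol), in each of 3 tumours. For Rps27, Rps23 and Rpl26 the other row is the higher one in every tumour, by at least 25.3-fold in FPKM and by less in fragments.

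The row Gm9846 (mm9 chromosome 3, 90016589 to 90017569) covers 99.9% of the Rps27 locus and had 224, 357 and 393 FPKM in tumours 1, 2 and 3. Gm15450 (mm9 chromosome 13, 91062781 to 91064331) covers 96.3% of Rps23 and had 212, 309 and 323 FPKM. Gm15772 (mm9 chromosome 11, 68715091 to 68718036) covers 99.2% of Rpl26 and had 877, 1139 and 1081 FPKM. All 3 rows rank with the canonical members in FPKM, and their lowest tumour was tumour 1. The fragments that the intervals imply differed by less than the FPKM, so a shorter length is implied for each of these rows than for its member. Gm9846 had 101, 159 and 181 fragments, against 11, 6 and 15 for Rps27. Gm15450 had 117, 169 and 181, against 40, 48 and 79 for Rps23. Gm15772 had 497, 638 and 622, against 48, 81 and 72 for Rpl26. Rpl30 and Rpl34 also had such a row. Gm12191, at Rpl30, was near 0 in tumours 1 and 3 and had 20.2 FPKM in tumour 2, where Rpl30 itself had 68.3 FPKM, against 64.8 and 99.6 FPKM in tumours 1 and 3. Rpl34 had 110.1, 166 and 212 FPKM and Rpl34-ps1, at its locus, 90.4, 105 and 121 FPKM.

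Rows at other places whose genes share 50-mers with low members were high for some members and low for others. Gm10136 on chromosome 19, whose GENCODE namesake holds 45.1% of the 50-mers of Rpl26, had 739.8, 1006 and 933 FPKM in tumours 1, 2 and 3. Gm5148 on chromosome 3, which holds 42.6% of those of Rps23, had 79.2, 114 and 124 FPKM. For Rpl21, BC004004 averaged 6.71 and Gm9104 1.13 FPKM, and for Rpl29, Uimc1 averaged 3.82 FPKM. BC004004 (mm9 chromosome 17, 29405733 to 29439832) and Uimc1 (mm9 chromosome 13, 55129241 to 55201656) are long loci. Their FPKM is that of the whole row and not of the shared stretch. In all, 16 rows that do not overlap the member's locus carried at least 20% of the 50-mers of 1 of 12 members, and 7 of the 16 had a higher mean than the member as deposited. Among the 7 are BC004004 and the Rps15a copies Gm13253 and Gm11968. With FPKM set to the principal transcript length, chosen after seeing the data, Rpl21 and Rps15a lay above these rows in each tumour.

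In RefSeq of GRCm38.p6 the genes that carry the names of these 5 rows at a member's locus all lie on another chromosome than the member, while the members lie on the chromosome that the files give. RefSeq lists Gm15450, Gm15772 and Gm12191 as pseudogenes and Rpl34-ps1 and Gm9846, the last under the name Rps27rt, as protein-coding. The gene of the same name or synonym in GENCODE vM21 holds 98.6% of the 50-mers of Rps27 for Gm9846 and 42.3% of those of Rps23 for Gm15450. When the row at the same locus is added to the member, an alternative chosen after seeing the data, the sums are 225.5, 358 and 395 FPKM for Rps27, 219, 318 and 336 FPKM for Rps23 and 886, 1156 and 1093 FPKM for Rpl26. These are sums of FPKM, and the fragments of row and member differed by less than their FPKM. Which of these measures describes the loci better was not tested. With the rows added for all members that have one, 79 members were above 1 FPKM. How reads were split between rows at one locus was not tested.

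Other low members had no row of this kind, and 5 of them differed from the remaining members in their copies. Rpl17, Rpl7a, Rps2, Rpl21 and Rpl29 share a 50-mer with 50, 121, 71, 81 and 81 pseudogenes of GENCODE vM21, and they are the only canonical members with 50 or more; the other 72 share one with at most 28. Their levels in tumours 1, 2 and 3 were 42.5, 52.6 and 39.8 FPKM for Rpl17 and 7.74, 9.86 and 11.7 FPKM for Rpl7a. Rps2 had 3.57, 5.23 and 6.78 FPKM. Rpl21 had 1.98, 2.12 and 2.50 FPKM, and Rpl29 had 0.556, 0.894 and 0.603 FPKM. The means of the other 72 had a median of 243 FPKM. The 5 were taken from the 10 lowest canonical members, so that choice sets their place below this median. Over the 77 canonical members the number of such pseudogenes and the mean FPKM had a Spearman rho of -0.46, a description across genes that share libraries. Whether reads of these genes were lost to copies was not tested.

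**Figure D3:**
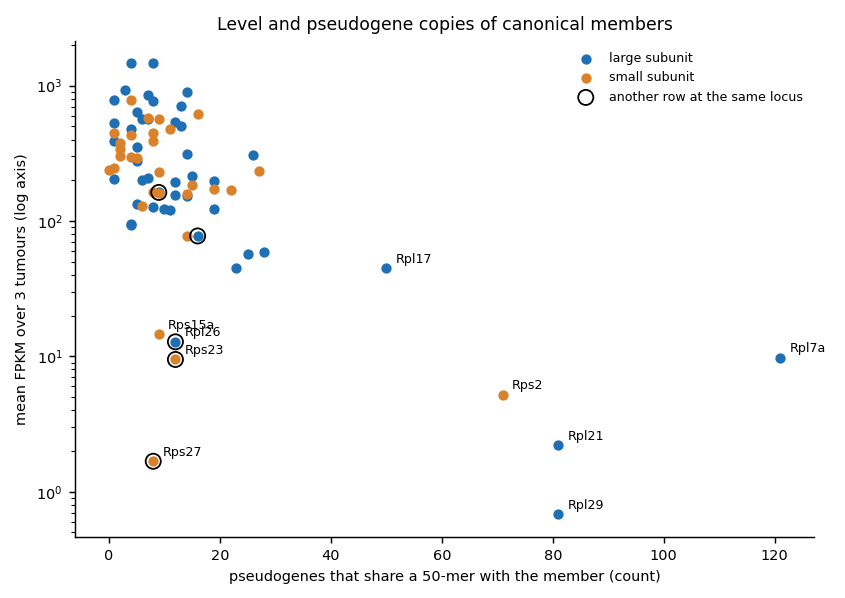
Mean FPKM over 3 tumours (log axis) of 75 of the 77 canonical members against the number of pseudogenes that share at least 1 of its 50-mers, with circles around the 5 drawn members that have another row at the same locus. The 5 members with 50 or more pseudogenes average between 0.684 and 45.0 FPKM, and 3 of the circled members are low without many pseudogenes.

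Rps15a, also among the 10 lowest, was low in FPKM and not in fragments. It had 10.8, 15.4 and 17.4 FPKM in tumours 1, 2 and 3, from intervals that correspond to 1565, 2147 and 2711 fragments. Rps27, in contrast, had 11, 6 and 15 fragments. The length that these fragments and FPKM imply for Rps15a was 18.5 times its principal transcript in GENCODE vM21, where the median over canonical members was 1.596 times, with quartiles of 1.31 and 1.90. As computed, the implied length was 11.8 kb, and the deposited locus of Rps15a spans 11772 bases (mm9 chromosome 7, 125247890 to 125259661). Implied lengths are not absolute, with a median of 1.596 times the transcript, so no match to the locus is drawn. The implied length exceeded 4 times the principal transcript in 5 canonical members, and Rpl21 was another of them at 4.36 times. Rows of 2 Rps15a copies elsewhere were higher than Rps15a itself as deposited, with 63.03, 96.98 and 114 FPKM for Gm13253 and 58.97, 89.003 and 100.4 FPKM for Gm11968. With FPKM set to the principal transcript length, an alternative chosen after seeing the data, Rps15a had 199, 284 and 322 FPKM. It then lay above both copies as deposited.

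Paralogues are encoded by separate genes, and some are known to replace the canonical protein in the ribosome. Each was compared with its counterpart within each tumour, on the log2(FPKM + 0.1) scale. Of the 7 pairs, 6 had the paralogue lower in 3 of 3 tumours and 1 had it higher. The exact two-sided sign-flip permutation test gave p = 0.25 for each pair, the smallest that 3 tumours allow, so no pair could pass 0.05.

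**Figure D4:**
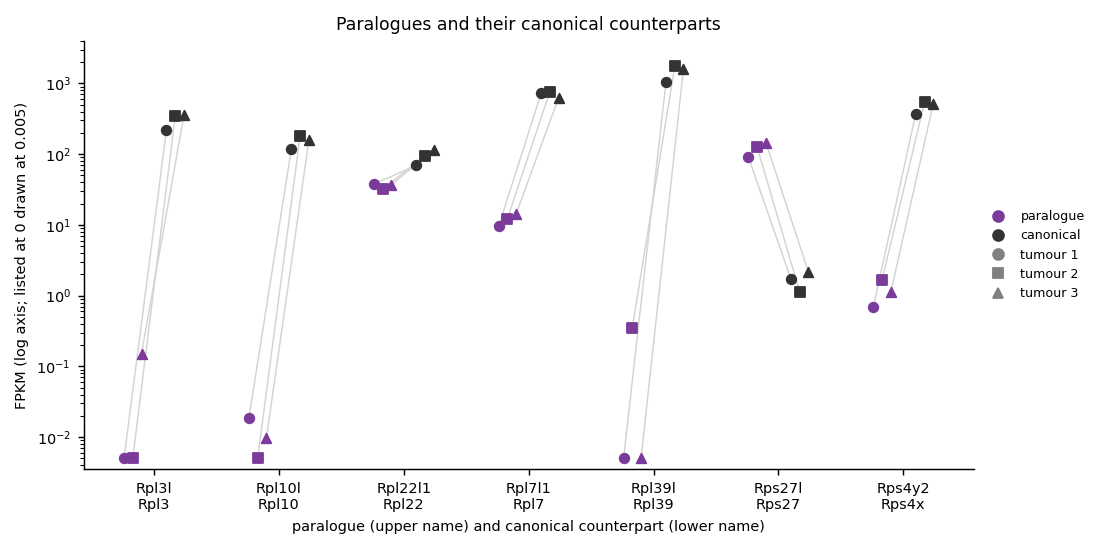
FPKM on a log axis of 7 paralogues (left symbol of each pair) and their canonical counterparts (right symbol) in each of 3 tumours, with values listed at 0 drawn at 0.005. The groups of 3 tumours do not overlap in any pair, and Rps27l is the only paralogue drawn above its counterpart.

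Rpl22l1, the paralogue of the RNA-binding protein Rpl22, was, as deposited, the closest to its counterpart of the 6 paralogues that lay lower. Rpl22l1 had 37.6, 31.8 and 36.8 FPKM in tumours 1, 2 and 3, against 69.3, 95.2 and 115 FPKM for Rpl22. As deposited, the paralogue had nearly the same level in all tumours, while Rpl22 was lowest in tumour 1, so the ratio of Rpl22l1 to Rpl22 was 0.544, 0.334 and 0.321. With the trends on GC content and length removed, the order of the tumours turned round, with ratios of 0.274, 0.402 and 0.515. The mean difference was -1.36 ± 0.42 log2 units as deposited (SD, n = 3). Rpl22 is another of the 5 members whose implied length exceeds 4 times the principal transcript, at 9.29 times, against 1.18 times for Rpl22l1. With FPKM set to the length of the principal transcript, an alternative chosen after seeing the data, Rpl22l1 lay at 0.0693, 0.0426 and 0.0409 of Rpl22, a difference of -4.33 ± 0.42 log2 units. Rpl7l1 then lay at 0.0386, 0.0468 and 0.0666 of Rpl7, or -4.34 ± 0.40 log2 units, so that neither pair was the closer in this setting. The setting took a transcript of 474 bases for Rpl22, while the median over its protein-coding transcripts was 2048 bases. The lower ratio of Rpl22l1 to Rpl22 depends on that choice, and other lengths were not tested. The 2 coding sequences are 70.2% identical over 369 aligned bases. Their first aligned stretch, from GENCODE vM21, shows where they diverge, with the 31 of 90 positions that differ in capitals; it covers coding bases 22 to 111 of Rpl22l1 and 37 to 126 of Rpl22.
Rpl22l1: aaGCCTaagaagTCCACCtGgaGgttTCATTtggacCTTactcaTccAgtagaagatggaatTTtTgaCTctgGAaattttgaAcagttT
Rpl22: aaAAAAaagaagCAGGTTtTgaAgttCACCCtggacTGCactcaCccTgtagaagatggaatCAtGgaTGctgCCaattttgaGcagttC

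Rpl7l1, a nucleolar protein that takes part in ribosome assembly, had 9.56, 12.3 and 14.3 FPKM in tumours 1, 2 and 3, against 721, 765 and 625 FPKM for Rpl7. The paralogue was at 0.0171 of the level of Rpl7 over the 3 tumours, with a mean difference of -5.87 ± 0.40 log2 units. Its ratio to Rpl7 was lowest in tumour 1. The coding sequences are 62.6% identical, the least of the 6 pairs compared.

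Rpl3l, known from striated muscle, was listed at 0, 0 and 0.152 FPKM in tumours 1, 2 and 3, against 220, 345 and 358 FPKM for Rpl3. The single value above 0 rests on about 1.88 fragments. Of the 6 skeletal muscle markers, 2 were above 1 FPKM, and the list summed to 39.4, 49.9 and 59.2 FPKM. The muscle actin Acta1 had 28.4, 37.3 and 44.9 FPKM and myoglobin, Mb, 10.9, 12.6 and 14.3 FPKM, while the creatine kinase Ckm was listed at 0 in tumours 1 and 2 and had 0.0261 FPKM in tumour 3. The part of these markers in the Rpl3l value was not tested. Rpl10l, known from the testis, where it stands in for the X-linked Rpl10, was listed at 0.0186, 0 and 0.00966 FPKM, against 119, 180.2 and 157 FPKM for Rpl10. Rpl39l, also known from the testis, was listed at 0, 0.352 and 0 FPKM, against 1041, 1736 and 1615 FPKM for Rpl39. These 3 paralogues were below 1 FPKM by limma, with Benjamini-Hochberg adjusted p = 1.6e-05 for Rpl3l, 1.1e-07 for Rpl10l and 0.0013 for Rpl39l. Differences from the counterpart were -11.11 ± 0.64 for Rpl3l, -10.42 ± 0.43 for Rpl10l and -13.08 ± 1.06 for Rpl39l in log2(FPKM + 0.1), values that the pseudocount sets.

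Rps27l, a paralogue known as a target of p53, had 90.5, 124 and 146 FPKM in tumours 1, 2 and 3, against 1.73, 1.14 and 2.17 FPKM for the row of Rps27. The difference was 6.10 ± 0.51 log2 units (SD, n = 3), and Rps27l was higher in 3 of 3 tumours. With Gm9846, the row at the same locus, added to Rps27, the order in FPKM turned round. The locus then had 225.5, 358 and 395 FPKM and Rps27l lay -1.43 ± 0.11 log2 units from it, lower in 3 of 3 tumours. In fragments the order did not turn round. Rps27l had 695, 919 and 1200 fragments, against 101, 159 and 181 for Gm9846 and 11, 6 and 15 for Rps27. Gm9846 thus had fewer fragments than Rps27l at a higher FPKM, which implies a shorter length for it. Whether FPKM or fragments describe the locus better was not tested. The 2 genes can be told apart in sequence, since only 22.4% of the 50-mers of Rps27l occur in another gene, against 98.6% of those of Rps27. The start of the coding sequences from GENCODE vM21, bases 1 to 90 of each, is shown with the 24 positions that differ in capitals, against 76.1% identity over the whole coding length.
Rps27l: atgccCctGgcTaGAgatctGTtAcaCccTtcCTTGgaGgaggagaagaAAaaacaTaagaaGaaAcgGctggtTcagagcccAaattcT
Rps27: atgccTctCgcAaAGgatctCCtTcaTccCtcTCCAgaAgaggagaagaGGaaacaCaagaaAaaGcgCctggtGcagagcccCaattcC

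Rps4y2 is listed in RefSeq as Rps4l, a transcribed pseudogene. It had 0.691, 1.67 and 1.12 FPKM, against 374, 536 and 514 FPKM for the X-linked Rps4x, a difference of -8.62 ± 0.34 log2 units. Its row overlaps that of Tmtc1.

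The 3 tumours kept the members in nearly the same order. Across the 77 canonical members the Spearman rho between tumours, on FPKM, lay between 0.97 and 0.99, a description across genes. Tumour 1 was the low one. Of the 79 members averaging 1 FPKM or more, 72 had their lowest value in tumour 1, or 91.1%, against 59.7% of all 11193 such symbols. The median member deviated from its own mean by -0.42, 0.20 and 0.25 log2 units in tumours 1, 2 and 3, against -0.23, 0.08 and 0.13 over all symbols. With median-of-ratios scaling, which moves the median of all symbols in tumour 1 to -0.02, the median member deviated by -0.20, 0.12 and 0.11.

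**Figure D5:**
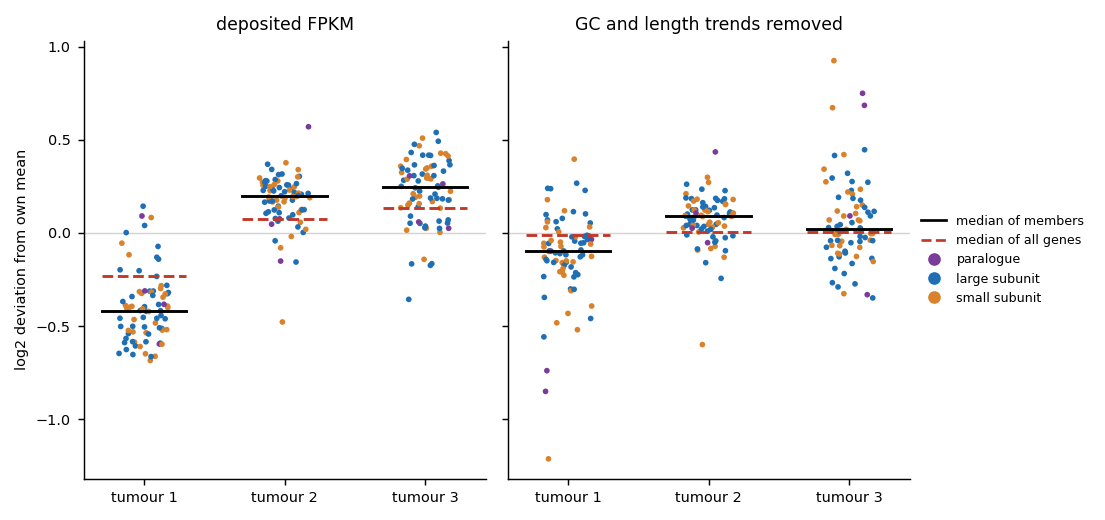
Deviation of each of 79 members from its own mean over the tumours in log2 units, with deposited FPKM on the left and with the trends on GC content and length removed on the right; black lines are medians of the members and dashed red lines medians of all genes averaging 1 FPKM or more. The members of tumour 1 lie at a median of -0.42 on the left and -0.10 on the right.

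The size of this shift differed with base composition. The deviation in tumour 1 and GC content had Pearson's r of -0.51 over 75 canonical members and -0.67 over 10845 genes, as a description across genes. The 25 canonical members with the highest GC content had a median deviation of -0.52 in tumour 1, against -0.34 for the 25 with the lowest. With each tumour's trends on GC content and length removed, the median member deviated by -0.10, 0.09 and 0.02. Over all symbols the median was then -0.0098, 0.0044 and 0.0046.

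Differences between single tumours were tested per gene by Cochran's Q on the deposited standard errors, which cover counting error only, so the test compares these libraries. With a ratio of highest to lowest of at least 2 also required, 9 of 79 members differed, where 32.1% of 11193 symbols did. They were Rplp2, Rpl8, Rpl18, Rpl27, Rpl36, Rps3, Rps14, Rps21 and the paralogue Rps4y2. The adjusted p alone was passed by 76 of the 79 members and by 10129 of the 11193 symbols. Under median-of-ratios scaling 71 members passed it, as did 55 without tumour 1, but the highest ratio among them was then 1.81 and 1.48. Thus 0 members met both conditions in these settings, where 27.8% and 5.71% of symbols did. With the trends removed, 4 members differed, where 16.5% of symbols did: Rps20, Rps23, Rps27l and Rpl22l1. No member was in both sets.

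The largest ratios among canonical members were those of Rplp2, Rps21, Rpl8, Rps14 and Rpl27. Rplp2 had 467, 805 and 1074 FPKM in tumours 1, 2 and 3, a ratio of 2.30 that fell to 1.29 with the trends removed. Rps21 had 229, 395 and 510.5 FPKM and Rpl8 had 234, 416 and 512 FPKM. In each, tumour 3 was the highest and tumour 1 the lowest, and Rps14 and Rpl27 had ratios of 2.16 and 2.14. At the other end, Rpl23, whose human counterpart also binds MDM2, had 437, 504.5 and 496 FPKM, a ratio of 1.15. Rps24, Rpl7, Rps3a and Rpl21 followed with 1.19, 1.22, 1.26 and 1.26. Rpl5, Rpl7 and Rps3a departed from the common order as deposited, with tumour 3 as their lowest. With the trends removed, tumour 3 was still the lowest for Rpl7 and Rps3a, while Rpl5 had 863, 968 and 869.5 FPKM, with tumour 1 the lowest. Rpl4, which was not among the genes chosen by rule and is named after its values were seen, did so most, with 574, 602 and 406 FPKM and a ratio of 1.48 that was 1.49 with the trends removed.

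Rps20, a small subunit protein, had 218, 319 and 358 FPKM as deposited, a ratio of 1.64, and 126, 353 and 554 FPKM with the trends removed, a ratio of 4.39. The removal used a GC content of 41.3% from a GENCODE transcript of 3706 bases, while the Rps20 locus in the files spans 1128 bases and the implied length is 0.716 kb, so the trend-removed values of Rps20 rest on a transcript longer than the measured one. Rpl22l1 and Rps27l, with GC contents of 39.8% and 43.1%, had ratios of 2.68 and 3.03 with the trends removed. Markers of other cells also differed between tumours: the 5 macrophage markers summed to 215, 384 and 826 FPKM, 5 of 5 above 1 FPKM, and the 5 adipocyte markers to 60.3, 44.7 and 195 FPKM, 2 of 5 above 1 FPKM, with their part in the members' differences not tested.

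The ribosomal proteins outside the naming rule had levels like those of the canonical members. Fau, a fusion of a ubiquitin-like protein with a small subunit protein, had 277, 490.2 and 540.5 FPKM in tumours 1, 2 and 3. Gnb2l1, also called Rack1, a scaffold on the small subunit, had 224, 421 and 448 FPKM. Both were lowest in tumour 1.

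Ribosome biogenesis genes were expressed at much lower levels. All 32 of the list, chosen from textbook knowledge, were above 1 FPKM, where 54.2% of 18028 symbols were, with a median of 7.49 FPKM. The 3 highest by mean were the histone chaperone Npm1 and the box H/ACA proteins Nop10 and Nhp2. Npm1 had 263, 109 and 40.8 FPKM in tumours 1, 2 and 3 as deposited, with tumour 1 the highest, opposite to most ribosomal protein genes. Its GC content is 42.6%, and GC content and the deviation in tumour 1 had Pearson's r of -0.67 over 10845 genes. The part of GC content in the order of Npm1 was not tested. Nop10 had 28.03, 50.01 and 47.9 FPKM and Nhp2 20.1, 32.6 and 44.7 FPKM. The lowest were Rrp1b and Bysl, which act in assembly of the large and small subunit, with means of 2.20 ± 0.62 and 2.05 ± 1.13 FPKM (SD, n = 3). By Cochran's Q, 15 of 32 differed between tumours as deposited, where 32.1% of all symbols did, and 6 of 32 with the trends removed, where 16.5% did. In 19 of 32 the lowest value was in tumour 1, or 59.4%, near the 59.7% of all symbols.

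Translation factors and a few other genes whose mRNAs are known to start with the same pyrimidine run were also expressed. All 14 of the list were above 1 FPKM, where 54.2% of 18028 symbols were. Eef1a1, the factor that brings aminoacyl-tRNA to the ribosome, had 1348, 1919 and 1548 FPKM in tumours 1, 2 and 3. Eef2, which drives translocation, had 338, 589 and 640.03 FPKM, and Eef1b2, an exchange factor for Eef1a1, had 157, 246 and 284 FPKM. Tumour 1 was the lowest for these 3 and for 9 of the 14, or 64.3%, near the 59.7% of all symbols, and tumour 3 was the lowest for the other 5. The 2 lowest by mean were Eif3f, a subunit of the initiation factor eIF3, at 22.1 ± 7.04 FPKM and Hnrnpa1, an RNA-binding protein, at 2.38 ± 0.50 FPKM (SD, n = 3), and 19 pseudogenes share a 50-mer with Hnrnpa1. By Cochran's Q with the ratio, 5 of 14 differed as deposited, near the 32.1% of all symbols, 3 of 14 under median-of-ratios scaling and 0 of 14 with the trends removed.

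Small nucleolar RNA genes lie inside many members. Of the 84 members, 21 contain a Snord or Snora row, with 19 Snord and 11 Snora rows in all, and Rpl13a holds 4 Snord rows. Such RNAs are known to guide modification of ribosomal RNA. The members lie on 19 chromosomes. The paralogue Rpl3l and the canonical member Rps2 lie 5901 bases apart on chromosome 17.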

How the data were processed

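Total RNA of 3 tumours was depleted of ribosomal RNA and made into directional, random-primed libraries from 50 ng, per the labels' protocols. The authors deposited FPKM per gene with interval bounds and a status flag, as the file headers show. TopHat, Cufflinks and mm9 are named in the submitters' processing notes; versions, annotation and strand setting were not stated there. Reads of overlapping or antisense rows may therefore not be told apart. Rows of 1 symbol were added up (22310 rows, 21881 symbols), and 182 symbols whose flag was not OK stayed out of the tests. Gene coordinates are 1-based on mm9, as in the files. Tumours carry numbers in accession order. An interval's half-width was read as 2 standard errors, which gave the fragments behind a value; these cover counting error only. Implied lengths compare genes with each other and are not absolute.

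The limma test (version 3.58.1, R 4.3.3) used log2((FPKM + 0.1)/(1 + 0.1)) against 0, with a trend and robust moderation, over 18028 symbols above 0 in at least 1 tumour, and calls were made at a Benjamini-Hochberg adjusted p under 0.05. This scale understates fold changes of low genes. Cochran's Q (2 degrees of freedom) set the tumours against each other for symbols averaging 1 FPKM or more. Both were tested on simulated data with known answers. GC content, length, coding sequence and 50-mers came from GENCODE vM21, matched by name or synonym for 98.2% of symbols and all 84 members. Where several principal transcripts had equally long coding sequences, the shortest transcript was taken. Trends on GC content and length were taken out with lowess (span 0.3). Promoter windows came from RefSeq on GRCm38.p6, with 63 members matched. Alternatives were the pseudocount, scaling, filters, trends, the ratio, the total without loci under 300 bp and the omission of each tumour. The members, lists and tests were chosen with earlier results of these data known. The named genes are the paralogues and their counterparts, the 10 highest and 10 lowest canonical members by mean, the 5 with the largest and 5 with the smallest ratio between tumours, genes of known roles, the proteins outside the naming rule, and the 3 highest and 2 lowest of each list. The other members named, the rows elsewhere that share 50-mers, and the rows at a member's locus were chosen after their values were seen. Some genes that this rule would name are not reported here.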

Additional observations from a re-analysis of the deposited data

How the results depend on the processing

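Of the values recomputed under other settings, 88 kept their direction, their side of the threshold or their size, 11 moved and 2 reversed. Some values counted as kept still changed in size. The highest less the lowest of the tumours' median member deviations was 0.66 as deposited and 0.32 with median-of-ratios scaling. The tally therefore does not measure how stable the sizes are. The 2 that reversed were Rps27l minus Rps27, at -1.43 with the row at the same locus added, and the large minus small subunit median, at 0.080 with members of under 50% shared 50-mers. The first of these reversed in FPKM and not in fragments. The number of members that differed between tumours was 0 with median-of-ratios scaling, where 27.8% of all symbols tested did. It was 4 with GC and length trends removed, where 16.5% did, and 58 of 79 with a ratio of at least 1.5, where 67.8% did. With 1 tumour left out it was 0 without tumour 1, 8 without tumour 2 and 1 without tumour 3. The shares of all symbols were then 5.71%, 29.4% and 14.1%. Biogenesis genes that differed numbered 6 of 32 with the trends removed and 25 of 32 with a ratio of at least 1.5, and ranged from 4 to 15 with 1 tumour left out. The shares of all symbols are those just given for each setting. The members held 10.4% of FPKM when rows of loci under 300 bp were left out of the total, and the highest less the lowest of the 3 tumours' median member deviations was 0.19 with the trends removed. With FPKM set to the principal transcript length, chosen after seeing the data, Rpl22l1 minus Rpl22 was -4.33 in place of -1.36. Rpl7l1 minus Rpl7 was then -4.34 in place of -5.87, and all 6 pairs so recomputed kept their direction. The value of Rpl22l1 minus Rpl22 depends on the transcript of 474 bases taken for Rpl22. The causes were not tested beyond the construction of each setting. The Q test of a setting with 1 tumour left out compares 2 libraries. No paired analysis was possible because the series holds 1 group. Rows with few fragments, such as Rps27, Rpl29 and the 3 paralogues near 0, carry a large counting error for their level. Why their fragments are few was not tested.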
